A study of Mus musculus with 6 samples.

Results

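The genes examined here lie around *Npr1* on mouse chromosome 3. They are the neighbours of the gene that was disrupted in the NPR1+/- mice, and 48 of them were listed for their position beside it. The list leaves out some genes of the same stretch, which are described at the end. Of these, 46 were among the 18191 genes of the expression table and could be placed by their NCBI identifiers. *S100a5* and *Tdrd10* were not analysed here. *Npr1* itself (NCBI gene 18160) lies from 90450591 to 90465928 of GRCm38, on the minus strand. The 46 neighbours run from 89209081 to 90695721, a stretch of 1.49 Mb, with 34 on the side of lower coordinates and 12 on the other. Whole aortas of male mice were sequenced in 3 WT and 3 NPR1+/- libraries, numbered 1 to 3 within each genotype. The NPR1+/- mice carry a heterozygous knockout made with CRISPR-Cas9, and no tissue-specific promoter or Cre driver is named. The age and strain of the mice, and whether the genotypes were littermates, are not given in the sources used here.

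*Npr1* encodes the receptor of atrial and brain natriuretic peptide, a membrane protein that makes cyclic GMP and relaxes vascular smooth muscle. When a gene is disrupted, its chromosomal neighbours can be altered too, through shared regulatory DNA or through flanking DNA that came from another strain with the edited allele. The neighbourhood is dense in genes and holds many genes of the S100 family, small calcium-binding proteins, as well as 3 ephrin-A ligands, membrane proteins that signal through Eph receptors on adjoining cells. The question put to the data was whether the neighbours differed between the genotypes more often, or by more, than genes did in general. Strain variants themselves cannot be read from counts per gene and were not analysed here.

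The estimated counts of a library summed to between 13510970 and 16664343. Levels within a gene are given as CPM, counts scaled to library size, and levels between genes as FPKM, which also divides by transcript length. In every library the markers of smooth muscle were the most abundant of the cell type lists checked, with a summed CPM of at least 12616. Both libraries numbered 1 stood apart from the others. Their summed markers of brown and white fat were 4931 in WT 1 and 8074 in NPR1+/- 1, against 965 to 1848 in the other 4, and their smooth muscle markers were 20611 and 12616 against 32937 to 37587. In NPR1+/- 1 the markers of neurons summed to 621 CPM, against 78.3 to 98.2 in the other 5 libraries. In RNA from whole tissue, fewer cells of a type and less RNA per cell cannot be told apart. Deviations from the genotype mean were correlated between libraries of the same number, most for number 1, while those numbered 2 and 3 correlated as much across numbers as within them. Values from a fit that blocks on that number stand beside the results they alter. Markers of macrophages summed to 334 CPM in WT 1 and 145 to 242 elsewhere, those of Schwann cells to 407 in NPR1+/- 1 and 206 to 249 elsewhere, those of epithelium to 48.9 to 295, and those of heart and skeletal muscle to 16.7 to 48.7. Most of the epithelium sum was *Dsp*, at 42.4 to 283 CPM. *Krt18* had 3.42 to 10.8 CPM and *Cdh1* at most 1.85, while *Krt5*, *Krt14*, *Krt8* and *Epcam* had at most 0.926 CPM in any library.

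*Npr1* measured 453, 611 and 633 CPM in the WT libraries, in the order of their numbers, against 295, 452 and 527 CPM in the NPR1+/- libraries. The genotypes overlapped, because NPR1+/- 3 was above WT 1, while within each number the NPR1+/- library was the lower of the pair. The NPR1+/- mean was 75.1% of the WT mean, with a log2 fold change of -0.41 (standard error 0.27, 95% interval -1.07 to 0.24, edgeR quasi-likelihood test, unadjusted p = 0.178). An exact two-sided permutation test gave p = 0.2, where 3 libraries against 3 cannot go below 0.1. With the replicate block the log2 fold change was -0.44 (95% interval -0.79 to -0.08, edgeR, unadjusted p = 0.0221, adjusted p = 0.311).

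Among the neighbours, 0 passed the test for a difference between the genotypes. Of the 46, 42 passed the filter on low counts and were tested, and 0 of the 42 were called, a call being an adjusted p under 0.05 together with a log2 fold change of 0.5 or more in size (edgeR's quasi-likelihood test, Benjamini-Hochberg adjustment over all 13938 genes tested, of which 0% were called). At an unadjusted p under 0.05 there were likewise 0 of 42 neighbours, where 2.96% of all genes tested passed, and the smallest unadjusted p of a neighbour was 0.098. DESeq2 on the same counts also found 0 neighbours at either threshold, among 0.0887% of all genes called and 3.24% at an unadjusted p under 0.05. With the replicate number as a block, edgeR called 0 neighbours, and 3 of 42 (7.14%) had an unadjusted p under 0.05 against 12.4% of all genes tested. Those were *Pmvk*, *Pbxip1* and *S100a4*, and DESeq2 with the block found the same 3 at that threshold, against 7.2% of all genes, and called 0 neighbours where it called 1.46% of all genes.

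The differences near *Npr1* were small in size as well. The median absolute log2 fold change was 0.11 over the 42 neighbours and 0.15 over all genes tested, and 0.16 over the 650 tested genes of chromosome 3 besides *Npr1*, the neighbours among them. The 75th percentile was 0.18 for the neighbours and 0.31 for all genes. In 3 of 42 neighbours (7.14%) the size was 0.5 or more, against 12.3% of all genes. Of the neighbours, 25 (59.5%) had a positive log2 fold change, against 51.6% of all genes, with a median of 0.03 against 0.01 over all genes. Only *Creb3l4*, *Pmvk*, *Chrnb2* and *S100a4* had an absolute log2 fold change as large as that of *Npr1*, which is 9.52% of the neighbours and 16.4% of all genes tested. The neighbours are expressed at higher levels than most genes, with a median FPKM of 23.2 against 8.72, and their estimates were correspondingly tighter, with a median standard error of 0.17 against 0.23. No test compared the list with the rest of the genes.

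**Figure D1:**
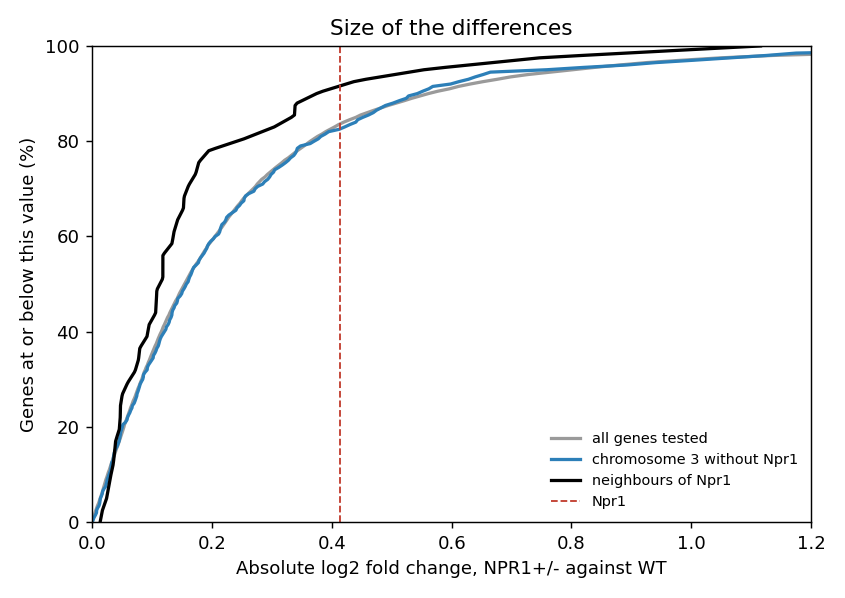
Cumulative share of genes (vertical axis, %) by absolute log2 fold change between NPR1+/- and WT aortas (horizontal axis), for the 42 tested neighbours of *Npr1*, the 650 tested genes of chromosome 3 besides *Npr1* and all 13938 genes tested. The curve of the neighbours lies above the others through most of its range, with a median of 0.11 against 0.15 for all genes, and the dashed line marks *Npr1* at 0.41.

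The precision of these estimates can be read from the 95% intervals, all 42 of which included 0. For 33 neighbours the interval lay wholly between -1 and 1 on the log2 scale, and for 23 it lay within a 1.5-fold difference in either direction. For 36 neighbours it excluded a log2 fold change of -1, the size that losing all output of 1 of 2 equal copies would give. The remaining intervals were wide, the widest being that of *Creb3l4*, from -3.08 to 0.85. For the rest, a 1.5-fold difference in at least 1 direction lay within the interval.

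The differences did not depend visibly on the distance from *Npr1*. Of the tested neighbours, 17 lay within 0.25 Mb, 8 between 0.25 and 0.75 Mb and 17 farther away, and their median absolute log2 fold changes were 0.095, 0.11 and 0.12. Across the 42 genes, which share the same 6 libraries, the correlation of distance with the absolute log2 fold change was 0.01 (Pearson's r) and 0.003 (Spearman's rho). The 34 neighbours on the side of lower coordinates had a median log2 fold change of 0.04 and the 8 tested on the other side one of 0.02.

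**Figure D2:**
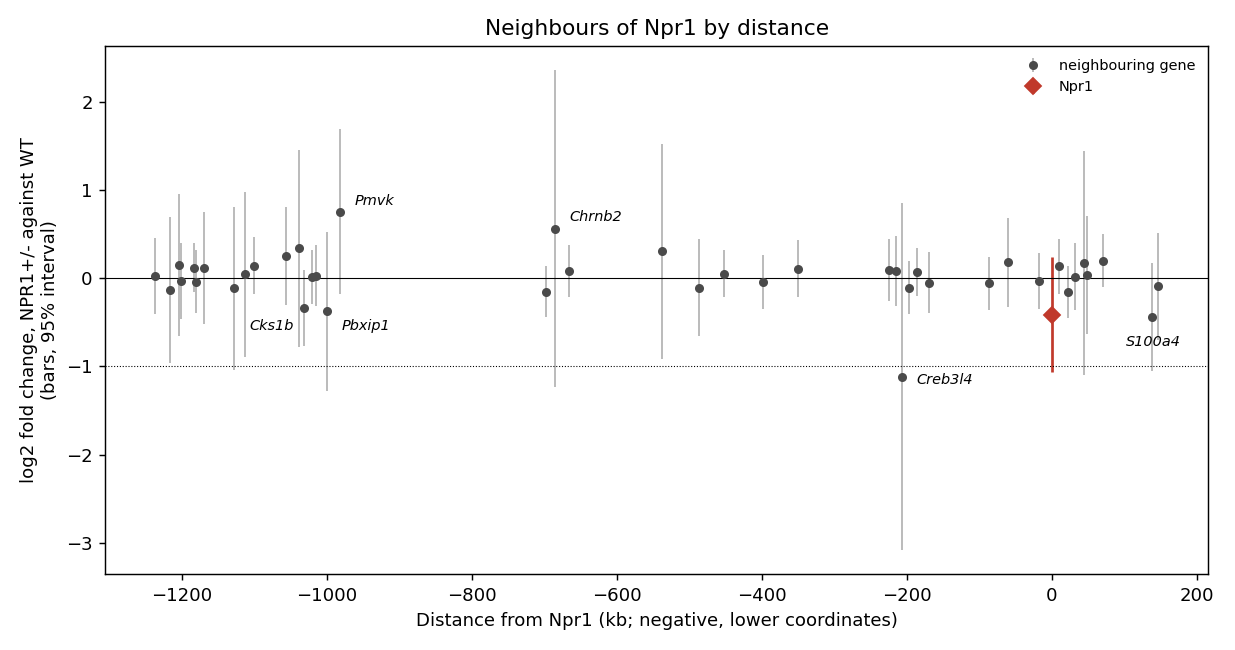
Log2 fold change of NPR1+/- against WT (vertical axis, bars give the 95% interval) for the 42 tested neighbours by their distance from *Npr1* (horizontal axis, kb, negative towards lower coordinates), with *Npr1* as a diamond at 0. All 42 intervals cross 0, and the points scatter about the zero line at every distance.

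The nearest tested genes on either side were *Ints3* and *Slc27a3*, at 17.0 and 59.8 kb towards lower coordinates, and *Ilf2* and *Snapin*, at 10.3 and 22.1 kb on the other side. *Ilf2*, a double-stranded RNA-binding protein, had 41.5, 45.2 and 42.1 CPM in WT and 40.4, 50.4 and 50.4 CPM in NPR1+/- libraries. The values of the genotypes overlapped, with a log2 fold change of 0.13 (standard error 0.13, edgeR, unadjusted p = 0.346). *Snapin*, a protein that binds the SNARE complex of vesicle fusion, had 72.3, 70.8 and 81.4 CPM in WT and 62.0, 72.3 and 66.4 in NPR1+/- libraries, with overlap and a log2 fold change of -0.16 (standard error 0.12, edgeR, unadjusted p = 0.236). The 3′ ends of *Ilf2* and *Snapin* overlap by 354 bases on opposite strands, and since no strand-specific counting is stated, reads from that stretch cannot be assigned with certainty. *Ints3*, a subunit of the Integrator complex that processes small nuclear RNAs, had 84.8, 85.8 and 101.9 CPM in WT and 84.2, 86.1 and 95.7 in NPR1+/- libraries. *Slc27a3*, of the fatty acid transport family, had 10.4, 10.5 and 10.5 CPM in WT and 10.3, 9.93 and 15.2 in NPR1+/- libraries, so that only NPR1+/- 3 was set apart. Their log2 fold changes were -0.04 (standard error 0.13) and 0.18 (standard error 0.21), and both genes overlapped between the genotypes. The counts of *Ilf2*, *Snapin* and *Slc27a3* were not whole numbers, so that their levels depend on how shared reads were divided. The same holds for *Tpm3*, *Ubap2l* and *Slc39a1* farther away. In every library the fractions of *Ilf2* and *Snapin* completed each other to a whole count within rounding, as with 731.95 and 1147.05 in WT 2. The levels of *Ilf2* and *Snapin* are therefore not independent of each other.

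The other neighbours with roles in RNA biology were as even. *Chtop*, which takes part in the export of mRNA, had 104.0, 132 and 126 CPM in WT and 106, 132 and 128 in NPR1+/- libraries, with the libraries numbered 1 lowest in both genotypes. *Adar*, the enzyme that edits adenosine to inosine in double-stranded RNA, had 40.6, 45.5 and 44.4 CPM in WT and 35.0, 40.4 and 42.0 in NPR1+/- libraries. It was the lower of each same-numbered pair, at 86.1%, 88.9% and 94.6% of WT, with a log2 fold change of -0.15 (standard error 0.12, edgeR, unadjusted p = 0.257).

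The S100 genes held the highest levels of the neighbourhood and also its lowest. *S100a6*, found in many proliferating and mesenchymal cells, had the highest FPKM of all neighbours, with 319, 372 and 313 in WT and 198, 349 and 389 in NPR1+/- libraries. *S100a1*, which modulates calcium cycling in muscle, had an FPKM of 370.2 and 364 in the libraries numbered 1 of WT and NPR1+/- mice, and of 124 to 167 in the other 4. The libraries numbered 1 thus stood apart from the others in both genotypes. In CPM it was 2.57 times as high in the libraries numbered 1 as in the others, the same libraries in which fat markers were high. Whether the fat accounts for it was not tested. Within the numbers, *S100a1* in NPR1+/- aortas was at 103%, 127% and 128% of WT, with a log2 fold change of 0.17 (standard error 0.53, edgeR, unadjusted p = 0.756). That value rests on single libraries, since it was -0.38 without NPR1+/- 1 and 0.37 without NPR1+/- 3.

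*S100a4*, a marker of fibroblasts and migrating cells, had the largest absolute log2 fold change of the 5 S100 genes tested. Its CPM was 71.5, 92.8 and 81.6 in WT and 38.7, 70.0 and 72.3 in NPR1+/- libraries. NPR1+/- 1 was far below the rest, and NPR1+/- 3 was just above WT 1, so that the genotypes overlapped. All 3 same-numbered pairs had less of it in NPR1+/- aortas, namely 54.1%, 75.5% and 88.6% of the WT value. For *S100a4* the log2 fold change was -0.44 (standard error 0.25, edgeR, unadjusted p = 0.129) and, with the replicate block, -0.48 (standard error 0.15, edgeR, unadjusted p = 0.013, adjusted p = 0.262). Without NPR1+/- 1 alone it was -0.22 (standard error 0.14, edgeR, unadjusted p = 0.174), and over all omissions of 1 library it ranged from -0.59 to -0.22. Without both libraries numbered 1 it was -0.29 (standard error 0.11, edgeR, unadjusted p = 0.0354, adjusted p = 0.389). The markers of fibroblasts summed to 3265, 3874 and 2538 CPM in WT and to 1964, 2882 and 2823 in NPR1+/- libraries, lower in NPR1+/- for numbers 1 and 2 only, with 2 of the 5 genes lower in all 3 pairs. Their part in the level of *S100a4* was not tested.

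*S100a13* and *S100a16* overlapped between the genotypes. The CPM of *S100a16* was 75.3, 71.2 and 65.9 in WT and 73.6, 81.4 and 88.0 in NPR1+/- libraries, with a log2 fold change of 0.19 (standard error 0.13, edgeR, unadjusted p = 0.167). When both libraries numbered 1 were left out, which makes 2 libraries against 2, *S100a1*, *S100a16* and *S100a4* had an unadjusted p under 0.05 by edgeR. They were the only neighbours that did, 3 of 42 (7.14%), against 11.5% of all genes tested. *S100a8* and *S100a9*, the subunits of calprotectin in neutrophils, were detected mainly in the libraries numbered 1. *S100a9* had 106, 2 and 0 counts in WT and 32, 2 and 4 counts in NPR1+/- libraries, and *S100a8* had 55, 0 and 2 against 19, 4 and 5. The 9 other neutrophil markers in the table summed to 13.7 to 28.0 CPM in WT and 19.1 to 24.7 in NPR1+/- aortas, highest in WT 1. Most of that sum came from *Cxcr2* and *Csf3r*, which were highest in NPR1+/- 3 and NPR1+/- 1. The granule and surface markers *Ly6g*, *Ngp* and *Retnlg* were highest in WT 1, at 0.365, 1.31 and 2.70 CPM, and at most 0.214 CPM in the other 5 libraries. *Mmp8*, *Ltf* and *Camp* were also highest in WT 1, at 0.511, 0.365 and 0.0729 CPM. *Elane* went the other way, highest in NPR1+/- 1 at 0.641 CPM against 0.0729 CPM in WT 1. Several of these values are near the level of 3 counts, which is 0.222 CPM in WT 1. The part of neutrophils in the level of *S100a8* and *S100a9* was not tested. *S100a3* and *S100a14* had at most 6 counts in any library. All 4 fell under the low-count filter, and no fold change is given for them.

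Of the 3 ephrin-A ligands, *Efna1*, which is known from endothelium, was the most abundant, with an FPKM of 8.13 over all libraries against 0.945 for *Efna3* and 0.852 for *Efna4*. The CPM of *Efna1* was 15.5, 8.58 and 10.4 in WT and 14.8, 10.4 and 12.2 in NPR1+/- libraries. It was highest in the libraries numbered 1 of both genotypes. The log2 fold changes of *Efna1*, *Efna3* and *Efna4* were 0.12, -0.12 and 0.05, each within its standard error of 0.27, 0.39 and 0.39.

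*Pmvk*, *Pbxip1* and *Cks1b* lie close together about 1 Mb from *Npr1*. *Pmvk* encodes phosphomevalonate kinase, an enzyme of cholesterol synthesis, and *Pbxip1* a protein that binds PBX transcription factors. *Pmvk*, *Pbxip1* and *S100a4* are the 3 neighbours with an unadjusted p under 0.05 with the replicate block (edgeR), 7.14% of those tested against 12.4% of all genes. They were chosen by that threshold alone, and control shared with *Npr1* was not tested. The 250 bases before a RefSeq transcript start of each are shown with those of *Npr1*. They are RefSeq sequences of GRCm38.p6, read 5′ to 3′ on the strand of the gene, and for *Npr1* and *Pbxip1* that start lies inside the outermost limits of the gene, so that the window reaches into them. Capitals mark matches on either strand to the TATA box letters TATAAA, the CCAAT box, the GC box letters GGGCGG or the E-box letters CACGTG.
*Npr1*, chr3:90465867-90466116, minus strand: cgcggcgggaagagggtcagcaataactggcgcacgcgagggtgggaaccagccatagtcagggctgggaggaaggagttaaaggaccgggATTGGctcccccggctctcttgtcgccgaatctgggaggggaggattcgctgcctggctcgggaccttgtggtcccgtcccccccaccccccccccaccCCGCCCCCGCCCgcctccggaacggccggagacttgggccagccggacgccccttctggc
*Pbxip1*, chr3:89436454-89436703, plus strand: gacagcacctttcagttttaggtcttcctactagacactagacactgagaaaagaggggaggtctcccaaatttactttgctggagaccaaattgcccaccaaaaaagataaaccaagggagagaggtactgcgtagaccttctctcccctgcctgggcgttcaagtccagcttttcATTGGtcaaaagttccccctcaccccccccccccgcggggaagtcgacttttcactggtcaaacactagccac
*Pmvk*, chr3:89454291-89454540, plus strand: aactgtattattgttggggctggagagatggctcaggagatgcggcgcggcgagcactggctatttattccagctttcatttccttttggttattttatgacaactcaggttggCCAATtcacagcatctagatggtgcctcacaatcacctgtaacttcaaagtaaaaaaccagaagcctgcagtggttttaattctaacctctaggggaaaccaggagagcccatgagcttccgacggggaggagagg
*S100a4*, chr3:90603520-90603769, plus strand: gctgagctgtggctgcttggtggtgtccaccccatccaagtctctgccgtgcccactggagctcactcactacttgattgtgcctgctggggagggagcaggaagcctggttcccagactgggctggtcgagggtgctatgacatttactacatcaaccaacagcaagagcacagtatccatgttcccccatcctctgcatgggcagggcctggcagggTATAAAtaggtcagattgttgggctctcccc

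The window of *Npr1* is rich in G and C (70.4%, with 21 CpG dinucleotides) and holds 2 GC boxes and 1 CCAAT box. Over all windows the medians are 52.4% and 6 CpG dinucleotides. The windows shown of *Pbxip1* and *Pmvk* hold 1 CCAAT box each, and that of *S100a4* holds 1 TATA box and only 2 CpG dinucleotides. *Pmvk* has a second window, chr3:89459321-89459570, with 0 matches to the motifs, a G and C content of 62.4% and 15 CpG dinucleotides. The motifs are common. Among all 32851 windows of the table, 12.4% hold the TATA box, 33.8% the CCAAT box, 32.7% the GC box and 6.02% the E-box, and among the 68 windows of 43 neighbours the shares were 5.88%, 38.2%, 52.9% and 7.35%. A match is a match of letters and no evidence of binding. The bases just after the start occurred in a GENCODE M21 transcript of the gene for *Npr1* and *Pmvk*, but not for *Pbxip1* and *S100a4*.

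*Pmvk* had 29.0, 20.1 and 23.7 CPM in WT and 68.0, 28.9 and 25.6 CPM in NPR1+/- libraries. NPR1+/- 1 stood far above the rest, and the other libraries of the genotype overlapped with WT. In each same-numbered pair the NPR1+/- library was higher, at 235%, 144% and 108% of WT. For *Pmvk* the log2 fold change was 0.75 (standard error 0.39, edgeR, unadjusted p = 0.098), and with the replicate block 0.63 (standard error 0.21, edgeR, unadjusted p = 0.0168, adjusted p = 0.284). Without NPR1+/- 1 it was 0.15 (standard error 0.20, edgeR, unadjusted p = 0.474). Without NPR1+/- 3 it was 1.00 (standard error 0.38, edgeR, unadjusted p = 0.0414, adjusted p = 0.949), where 3.76% of all genes had an unadjusted p under 0.05. Leaving out any other single library put 0 neighbours past that threshold. The summed markers of fat were also the higher of each pair in NPR1+/- aortas, at 4931, 1037 and 965 CPM in WT and 8074, 1848 and 1828 in NPR1+/- libraries, and 5 of the 6 genes were higher in all 3 pairs. Their part in the level of *Pmvk* was not tested.

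*Pbxip1* had 688, 1045 and 1109 CPM in WT and 396, 876 and 914 in NPR1+/- libraries, the third highest FPKM of the neighbours at 185. The libraries numbered 1 were the lowest of each genotype, and the NPR1+/- library was the lower of each pair, at 57.5%, 83.8% and 82.4% of WT. Its log2 fold change was -0.38 (standard error 0.38, edgeR, unadjusted p = 0.353), and with the block -0.44 (standard error 0.18, edgeR, unadjusted p = 0.0444, adjusted p = 0.384). Without NPR1+/- 1 it was -0.09 (standard error 0.24). The markers of smooth muscle followed the same order, at 20611, 34775 and 37587 CPM in WT and 12616, 32937 and 34102 in NPR1+/- libraries, with 4 of 6 genes lower in all 3 pairs. Their part in the level of *Pbxip1* was not tested. Its counts were not whole numbers, which shows that some of its reads were divided with other genes.

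**Figure D3:**
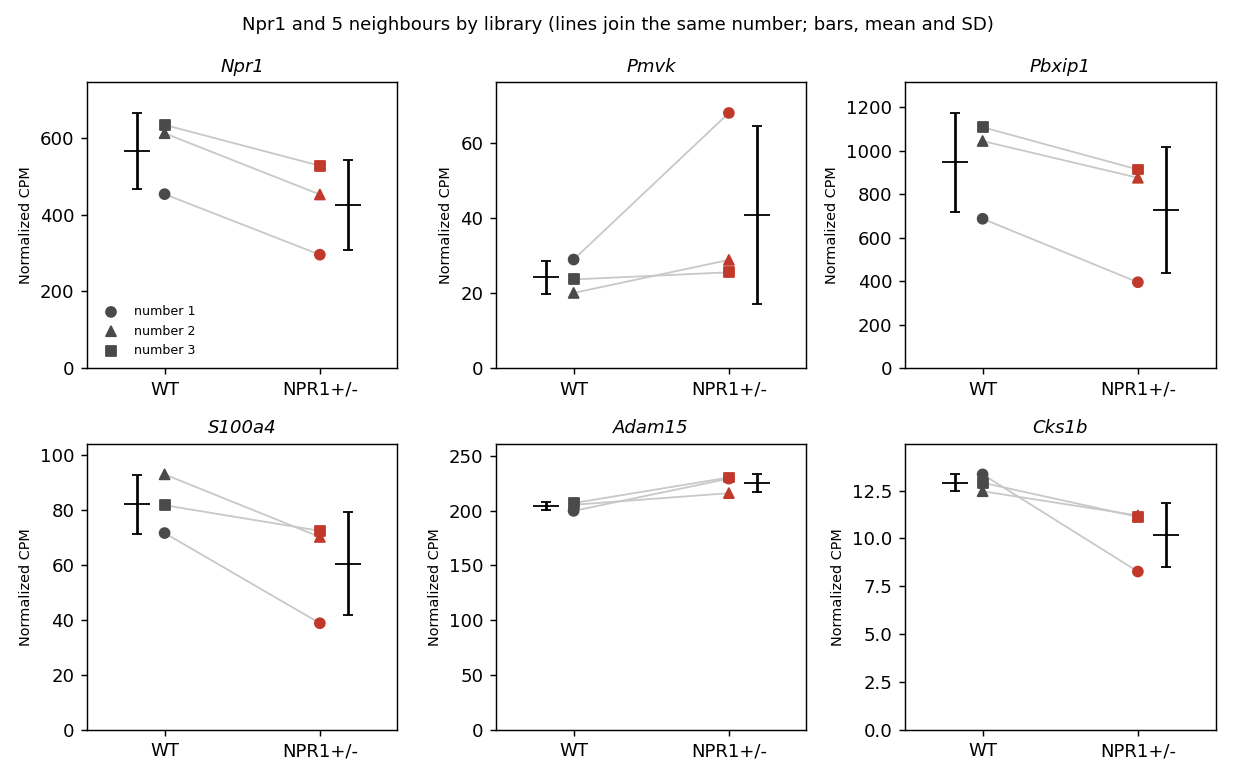
Normalized CPM (vertical axes, from 0) of *Npr1* and 5 neighbours in WT and NPR1+/- aortas, with 1 point per library, lines joining libraries of the same number, and bars for mean and SD (n = 3). *Npr1*, *Pbxip1*, *S100a4* and *Cks1b* were lower and *Pmvk* and *Adam15* higher in the NPR1+/- library of every number, while only *Adam15* and *Cks1b* had genotypes without overlap.

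Only *Adam15* and *Cks1b* had all 3 NPR1+/- libraries on 1 side of all 3 WT libraries in CPM. This is 4.76% of the 42 neighbours, against 7.48% of all genes tested. *Adam15*, a membrane metalloprotease with a disintegrin domain, had 199.8, 205 and 207 CPM in WT and 229, 216 and 230.2 in NPR1+/- libraries, with a log2 fold change of 0.14 (standard error 0.13, edgeR, unadjusted p = 0.324). *Cks1b*, a subunit of cyclin-dependent kinases, had 13.3, 12.5 and 12.9 CPM in WT and 8.27, 11.2 and 11.1 in NPR1+/- libraries, with a log2 fold change of -0.34 (standard error 0.18, edgeR, unadjusted p = 0.102). The counts of *Cks1b* were not whole, so that its level depends on how reads shared with similar sequences were divided. In FPKM, *Snapin* and *Ubap2l* were also apart, which makes 9.52% of the neighbours against 7.21% of all genes.

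Within the same-numbered pairs, 8 of the 42 neighbours (19%) moved in 1 direction in all 3 pairs, against 34.4% of all genes tested. *Adam15*, *Flad1*, *Pmvk* and *S100a1* were higher in each pair (9.52%, against 17.5% of all genes) and *Cks1b*, *Pbxip1*, *Adar* and *S100a4* lower (9.52%, against 16.9%). *Flad1*, the enzyme that makes FAD from riboflavin phosphate, had 31.7, 13.9 and 16.5 CPM in WT and 43.6, 17.5 and 17.4 in NPR1+/- libraries. Like *Pmvk*, it was highest in the libraries numbered 1 of both genotypes.

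The remaining genes of metabolism and mitochondria were close between the genotypes. *Krtcap2*, a subunit of the oligosaccharyltransferase of N-glycosylation, was the most abundant of them in FPKM, with 106, 95.4 and 92.1 in WT and 70.9, 97.8 and 118 in NPR1+/- libraries. *Dpm3* of dolichol-phosphate mannose synthase, *Mtx1* of mitochondrial protein import and *Hax1*, an inhibitor of apoptosis, had log2 fold changes of 0.12, 0.02 and 0.05, each with a standard error of at most 0.18.

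The regulators of transcription and chromatin besides *Pbxip1* were *Crtc2*, a coactivator of CREB, *Gatad2b* of the NuRD complex, *Pygo2* of Wnt signalling, *Zbtb7b* and *Creb3l4*. *Creb3l4*, a transcription factor anchored in the endoplasmic reticulum membrane, had the largest absolute log2 fold change of the 42 tested neighbours at -1.12 (standard error 0.82, edgeR, unadjusted p = 0.22). It was also among the least expressed, with 6, 30 and 19 counts in WT and 11, 1 and 12 in NPR1+/- libraries, and WT 1 lay below NPR1+/- 1 and 3 in CPM. *Zbtb7b* had a log2 fold change of 0.25 (standard error 0.23), and those of *Crtc2*, *Gatad2b* and *Pygo2* lay between -0.06 and 0.07.

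Of the receptors, adaptors and surface proteins, *Chrnb2*, a subunit of neuronal nicotinic acetylcholine receptors, had 2.92, 1.42 and 1.11 CPM in WT and 5.63, 1.58 and 0.826 in NPR1+/- libraries. NPR1+/- 1, the library with high neuronal markers, had the highest level and NPR1+/- 3 the lowest. The log2 fold change of 0.56 (standard error 0.75) turned to -0.60 without NPR1+/- 1, and the part of the neuronal RNA in it was not tested. *Il6ra*, the receptor of interleukin 6, had 12.4, 5.80 and 4.69 CPM in WT and 15.5, 5.57 and 7.18 in NPR1+/- libraries, high in both libraries numbered 1. *Shc1*, an adaptor of receptor tyrosine kinases, and *Muc1*, an epithelial mucin, had log2 fold changes of 0.01 (standard error 0.13) and -0.14 (standard error 0.35).

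Among the transporters, *Slc50a1*, a sugar transporter, *Slc39a1*, a zinc importer, and *Atp8b2*, a phospholipid flippase, had log2 fold changes of -0.04, -0.11 and -0.11, with standard errors of 0.15, 0.13 and 0.23. *Slc50a1* was the most abundant, with an FPKM of 60.5, 62.1 and 50.7 in WT and 47.0, 53.5 and 67.9 in NPR1+/- libraries. Of the genes of vesicle traffic and cytoskeleton, *Tpm3*, a tropomyosin that stabilizes actin filaments, was the most abundant, with 92.6, 87.6 and 77.9 FPKM in WT and 88.1, 91.1 and 102.3 in NPR1+/- libraries. *Rab13*, a small GTPase of tight junctions, *Dennd4b*, an activator of Rab10, and *Trim46*, which bundles microtubules in axons, had log2 fold changes of 0.09, -0.05 and 0.15. In the group of ubiquitin and cell division, *Ubap2l* was the most abundant, with 35.1, 35.9 and 35.5 FPKM in WT and 34.4, 32.0 and 34.0 in NPR1+/- libraries. It had no overlap in FPKM but did overlap in CPM, and its log2 fold change was -0.05 (standard error 0.13). *Ube2q1*, a ubiquitin-conjugating enzyme, and *Jtb* both had a log2 fold change of 0.08.

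**Figure D4:**
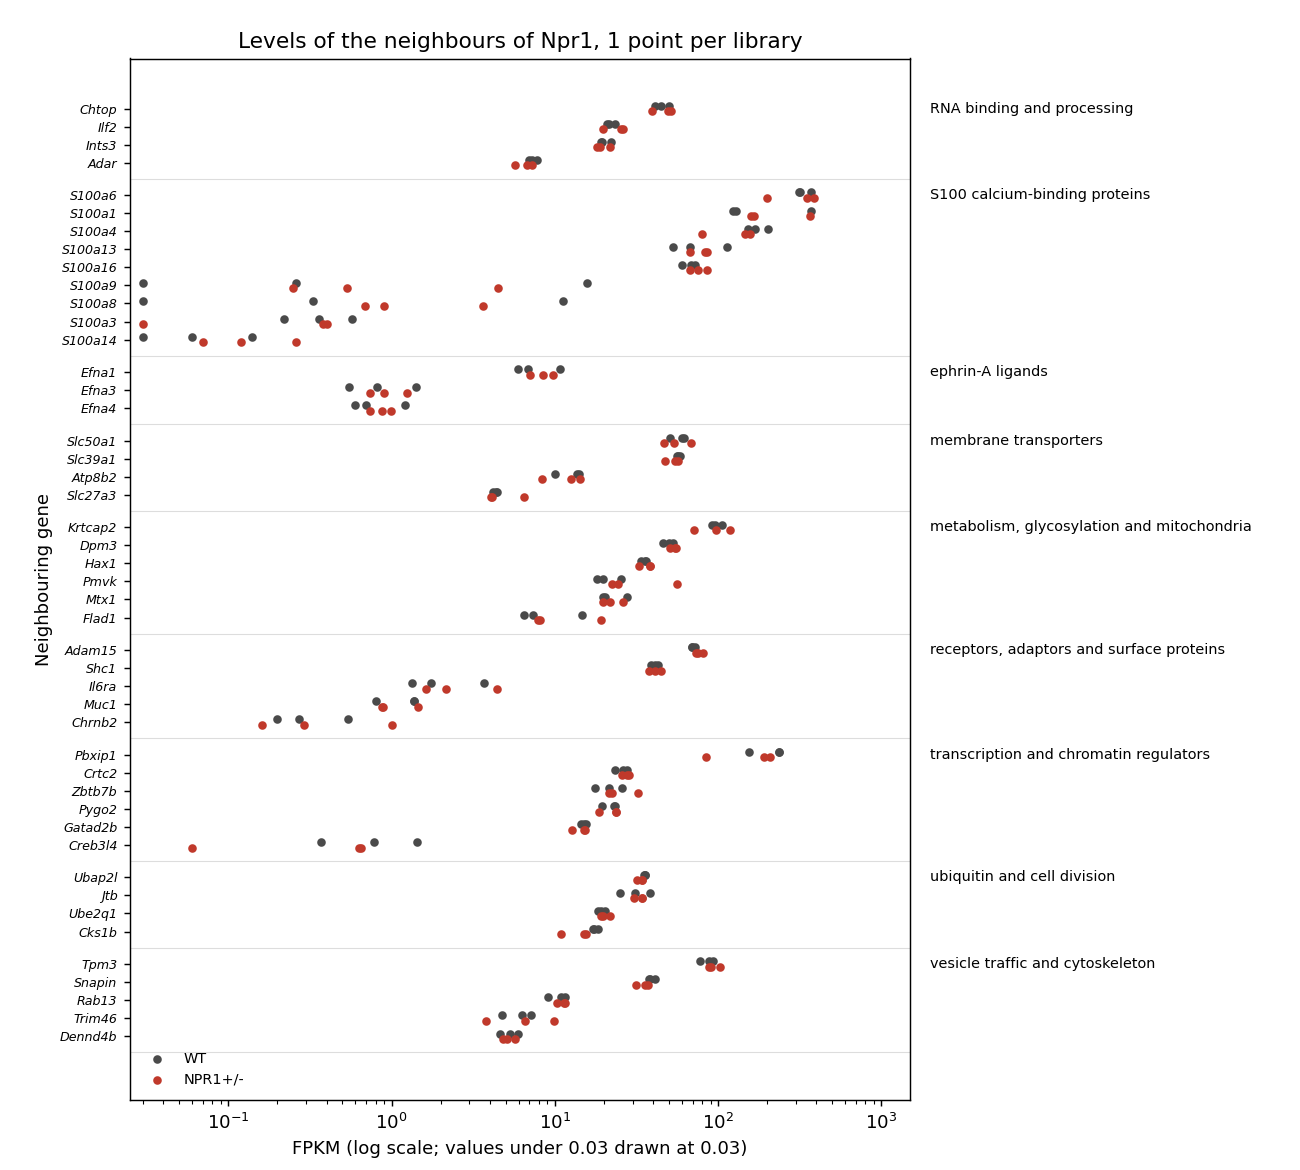
FPKM (horizontal axis, log scale) of the 46 neighbours in the table, grouped by role, with 1 point per library and WT and NPR1+/- in different shades. Levels run from a mean of 0.108 for *S100a14* to 323 for *S100a6*, 31 genes have a mean of at least 10, and among the 42 tested genes the genotypes overlap in all but *Adam15*, *Cks1b*, *Snapin* and *Ubap2l*. Values under 0.03 are drawn at 0.03.

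The libraries numbered 1 were set apart in many of the neighbours. In 24 of the 42 neighbours (57.1%) both libraries numbered 1 lay above or below all 4 others, against 48% of all genes tested, so that the neighbourhood was near the rest of the genome in this. They were above the others in 12 neighbours (28.6%, against 23.9% of all genes), among them *S100a1*, *S100a13*, *Il6ra*, *Flad1* and *Pmvk*, and below them in 12 (28.6%, against 24.1%), among them *Pbxip1*, *Trim46*, *Atp8b2* and *S100a6*. *Ubap2l*, *Shc1*, *Adam15*, *Hax1* and *Dpm3* varied least, with the highest library at most 1.17 times the lowest.

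**Figure D5:**
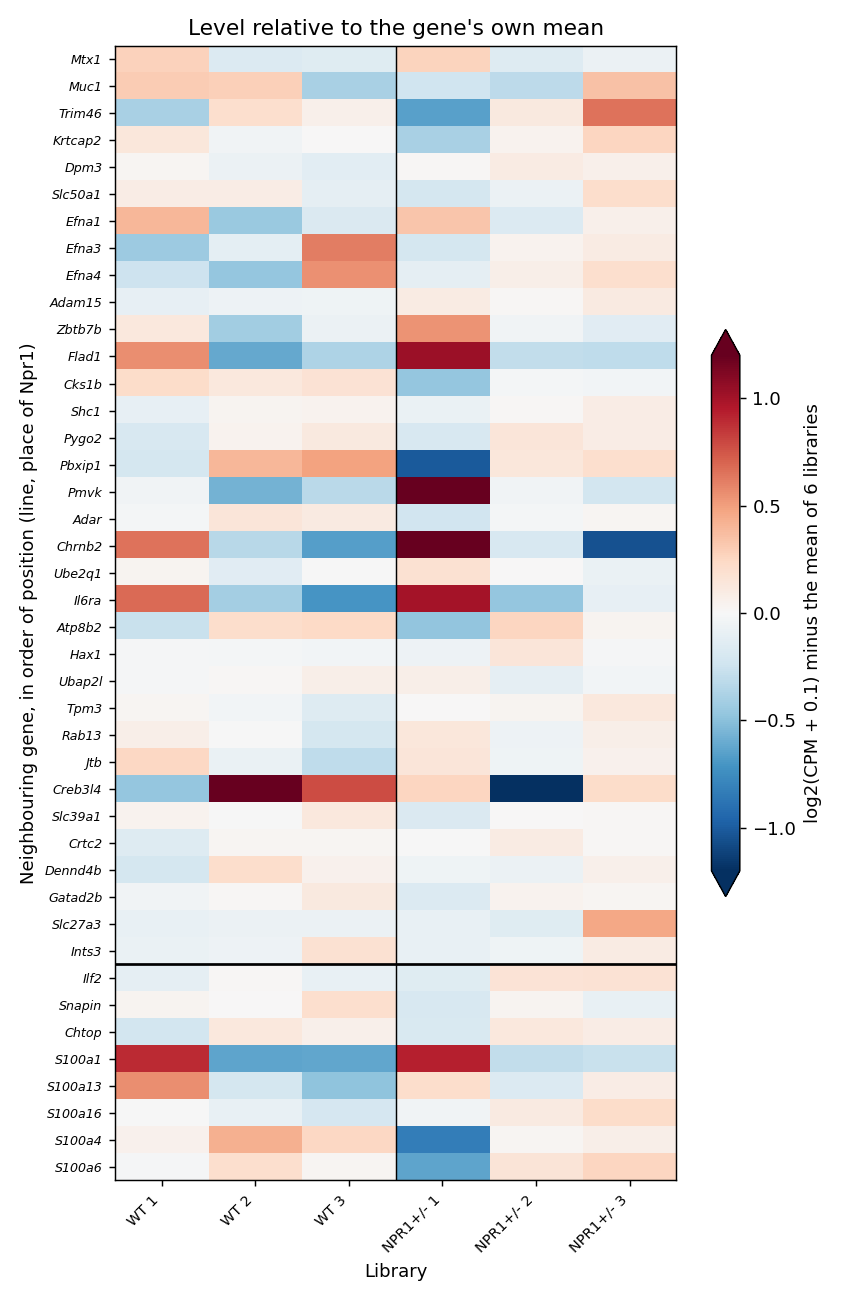
Log2(CPM + 0.1) of each tested neighbour relative to its own mean over the 6 libraries (columns), in order of position (rows, with a line at the place of *Npr1*). *S100a1*, *Il6ra* and *Flad1* are high in both WT 1 and NPR1+/- 1, *Pmvk* and *Chrnb2* are highest in NPR1+/- 1, and the weakly expressed *Creb3l4* varies most.

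The 48 listed genes are a choice from the interval, so the genes between them were examined as well. Between the outermost neighbours, 11 more genes of the table were found, of which 10 were tested. The log2 fold change was positive for 9 of the 10, against 51.6% of all genes, and 0 were called. Their median absolute log2 fold change was 0.18, against 0.15 over all genes. *She*, an adaptor protein with an SH2 domain that lies from 89831370 to 89858846, was the only one with an unadjusted p under 0.05, which makes 10% of the 10 against 2.96% of all genes. It had 18.5, 15.9 and 21.2 CPM in WT and 31.5, 31.5 and 19.8 in NPR1+/- libraries, so that NPR1+/- 3 lay below WT 3, and its log2 fold change was 0.58 (standard error 0.22, edgeR, unadjusted p = 0.0377, adjusted p = 0.999). With any 1 library but NPR1+/- 3 left out, 0 of these other genes of the interval had an unadjusted p under 0.05 by edgeR. The markers of endothelium summed to 455 to 810 CPM in WT and 869 to 1320 in NPR1+/- libraries without overlap. Of the 6 genes, 3 were higher in NPR1+/- in all 3 pairs, while *Cdh5*, *Kdr* and *Tek* were lower in NPR1+/- 3 than in WT 3. The part of these markers in the level of *She* was not tested. Within 1, 2 and 5 Mb of *Npr1*, 1 of 34, 1 of 73 and 2 of 140 tested genes had an unadjusted p under 0.05, which is 2.94%, 1.37% and 1.43% against the 2.96% of all genes. With the replicate block the shares were 11.8%, 6.85% and 10%, against 12.4%. Chromosome 3 as a whole, with *Npr1*, was at 2.3%, the 17th of 20 chromosomes in this share, and with the replicate block it was at 13.4%, the 5th of 20, against 12.4% of all genes.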

How the data were processed

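RNA of whole aortas from 3 WT and 3 NPR1+/- male mice was sequenced. The authors filtered reads with SOAPnuke, aligned them with Bowtie2 to a set of coding genes and used RSEM, and deposited estimated counts and FPKM values for 18191 genes. The submitters' notes name mm10, which is GRCm38. The authors' means were not used. Symbols and positions came from RefSeq GRCm38.p6, by NCBI identifier, for 18070 genes, and strands from GENCODE M21.

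Estimated counts were rounded and tested with edgeR 4.0.16 in R 4.3.3 (TMM, minimum count of 10, quasi-likelihood test, Benjamini-Hochberg adjustment). Calls needed an adjusted p under 0.05 and a size of 0.5 or more on the log2 scale. The 95% intervals rest on the same fit. DESeq2 1.42.0 and limma 3.58.1 on log2(FPKM + 0.1) were alternatives. The fits were tested on simulated counts with 200 changed genes. At a 4-fold change edgeR recovered 75% of them with 9 false calls, and edgeR with the replicate block 67.5% with 8. DESeq2 recovered 88.5% with 53 false calls. Changes smaller than 4-fold were not simulated. The simulated counts held no difference shared by libraries of the same number, so they cannot show how the block performs on the real counts.

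Totals of 13510970 to 16664343 counts make 3 counts worth 0.18 to 0.222 CPM, which covers counting error only. The labels number the libraries without naming animals, and p-values measure the spread between these libraries. The deviations of same-numbered libraries correlated at 0.64, 0.39 and 0.24, against -0.58 to 0.45 for other pairs. The labels do not say that the numbers pair the libraries, and the main fit did not pair them. Only the replicate block and the comparisons of same-numbered libraries treat them as pairs. Values in every library are given for *Npr1*, the nearest tested neighbours, those with an unadjusted p under 0.05 or without overlap, the 5 largest fold changes and the most abundant gene of each role, and for other genes where a pattern is described, chosen after their values were seen. The neighbours and lists were chosen with earlier results of these data known. Marker lists of 10 cell types were summed as CPM.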

Additional observations from a re-analysis of the deposited data

How the results depend on the processing

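The number of neighbours called was 0 in every setting tried. In most of these settings 0 of all genes were called as well, so that the 0 says nothing particular about the neighbours there. These were the edgeR fits of all 6 libraries, the limma fits and each omission of 1 library. With DESeq2, 16 of all genes were called and the median absolute log2 fold change of all genes was 0.21, as it was without a filter on low counts. With the replicate block, 3 neighbours and 1735 of all genes had an unadjusted p under 0.05, and with edgeR on all 6 libraries the block changed no call at an adjusted p. Other settings were added after the data were seen. DESeq2 with the replicate block called 265 genes, with 3 neighbours and 1304 of all genes at an unadjusted p under 0.05 and a median of 0.21 for all genes. Without both libraries numbered 1, these were 1 gene called, 3 neighbours and 1609 genes, and with the block as well 32, 2 and 1238. The median absolute log2 fold change of the neighbours was then 0.14 in both, and 0.14 within 0.25 Mb, and 2 other genes of the interval had an unadjusted p under 0.05 without the block. In those fits *Chrnb2* turned to -0.071 and, with the block, -0.11, *Krtcap2* to 0.17 and 0.17, *S100a6* to 0.094 and 0.096, and *Slc50a1* to 0.083 and 0.080. In FPKM, 4 neighbours had no overlap, and with every gene of positive mean FPKM in limma 0 other genes of the interval had an unadjusted p under 0.05. All genes within 1, 2 and 5 Mb gave 1, 1 and 2 at that threshold.

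With each library left out in turn, between 0 and 1 neighbours had an unadjusted p under 0.05, and between 194 (without WT 2) and 865 (without WT 1) of all genes. The median absolute log2 fold change ranged from 0.11 to 0.16 for the neighbours, from 0.094 to 0.16 within 0.25 Mb and from 0.14 to 0.23 for all genes, and was the smaller for the neighbours in each. Of the other genes of the interval, 1 passed without NPR1+/- 3 and 0 in every other omission, and *Npr1* ranged from -0.60 to -0.22. Among the neighbours named by the rule, the directions that turned were those of *Chtop* (-0.082 to 0.095), *Krtcap2* (-0.19 to 0.10), *Efna1* (-0.057 to 0.39), *Ints3* (-0.096 to 0.038), *Chrnb2* (-0.60 to 1.07), *S100a6* (-0.26 to 0.12), *Slc50a1* (-0.17 to 0.035) and *Slc27a3* (-0.047 to 0.28). *S100a1*, outside that rule, turned to -0.38 without NPR1+/- 1. The causes were not tested.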

Other observations

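Members of the same families outside the list were followed as well. Of 6 such S100 genes, among them *S100a7a*, which lies within the interval around *Npr1*, 5 were in the table and 4 were tested, with log2 fold changes between -0.04 and 0.19 and 0 genes at an unadjusted p under 0.05. *S100a11* was the most abundant, with 374, 399.7 and 361 CPM in WT and 312, 413 and 436 in NPR1+/- libraries. *S100b*, a marker of Schwann cells and fat, had 38.9, 9.19 and 15.2 CPM in WT and 31.1, 16.8 and 13.5 in NPR1+/- libraries, highest in both libraries numbered 1 as *S100a1* was.

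Of the 5 ephrin ligands encoded elsewhere, *Efnb3* was the only one with an unadjusted p under 0.05, which makes 20% of the 5 against 2.96% of all genes. Its CPM was 0.875, 1.23 and 1.54 in WT and 3.21, 1.39 and 3.50 in NPR1+/- libraries, so that NPR1+/- 2 lay below WT 3. The log2 fold change was 1.14 (standard error 0.45, edgeR, unadjusted p = 0.0403, adjusted p = 0.999). *Efna5*, *Efnb1*, *Efnb2* and *Efna2* had log2 fold changes of -0.10, 0.17, -0.25 and 0.22.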
